A study of Homo sapiens
Mus musculus with 2 samples.

Results

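Mitochondrial ribosomal protein genes, whose mouse symbols begin with Mrps or Mrpl followed by a number, were followed across the cell classes of the mouse colonic epithelium. The symbols matched 77 of the 25504 genes in the deposited tables, 29 with an Mrps symbol and 48 with an Mrpl symbol. The cells came from 1 untreated wild-type (WT) mouse of the C57Bl6 strain and were profiled as 2 libraries, replicates 1 and 2, which hold different cells of that animal. The epithelium had been released from the colon with EDTA and enzymes, viable cells had been enriched on magnetic columns, and single cells had been captured in droplets (inDrop, with CEL-Seq amplification). Human K562 leukaemia cells had been added to the suspension, and they were not analysed here. All barcodes belong to a single study group, so the comparisons are between cell classes within the libraries: progenitor-like cells, secretory cells (deep crypt secretory-like and goblet-like) and colonocyte-like cells. With 1 animal, p-values cover only how class differences varied between 2 libraries, a spread that may be technical.

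Mitochondria carry their own small genome, which encodes a few core subunits of the respiratory chain and of the ATP synthase, and they translate these messages on ribosomes of their own. The RNA of these ribosomes comes from mitochondrial DNA, whereas all of their proteins are encoded in the nucleus, made in the cytosol and imported. The small subunit (Mrps symbols) binds the messenger RNA and decodes it, and the large subunit (Mrpl symbols) forms the peptide bonds. Many of these proteins have counterparts in bacterial ribosomes and the others were added during the evolution of mitochondria. In the colon, dividing cells at the crypt base renew the epithelium, and colonocytes near the surface are known for burning butyrate in their mitochondria.

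Replicate 1 held 1738 barcodes with 8602490 unique molecular identifiers (UMIs, each marking 1 captured molecule), and replicate 2 held 664 barcodes with 3951918 UMIs. The members together took 31978 and 14694 of these UMIs, and a barcode held a median of 15. Single members were sparse, with 149 (Mrpl22) to 2061 UMIs over both libraries, so that they were measured in sums over the barcodes of a class and not in single cells. Barcodes were clustered without the members and without the mitochondrially encoded genes. Progenitor-like barcodes (160 in replicate 1 and 52 in replicate 2) formed a single cluster led by Hmgb2, Top2a, Tubb5, Stmn1 and Ube2c, in which the 11 cycling markers in the tables summed to 6059 and 5322 counts per 1000000 UMIs of the class (CPM) in replicates 1 and 2, against 892 and 722 CPM in deep crypt secretory-like, 286 and 219 CPM in goblet-like and 159 and 152 CPM in colonocyte-like barcodes. The 12 stem cell markers summed to 2107 and 1617 CPM in the progenitor-like cluster, 1276 and 1137 CPM in deep crypt secretory-like, 529 and 399 CPM in goblet-like and 83.0 and 104 CPM in colonocyte-like barcodes. Stem and dividing cells were not separated, and no comparison between them was made. The secretory classes were deep crypt secretory-like barcodes (272 and 82, led by Reg4 and Nov) and goblet-like barcodes (305 and 76, in a cluster led by Clca1 and Zg16 and another led by Best2 and Scin). Colonocyte-like barcodes (400 and 116) formed 2 clusters, led by Fabp6 and Slc37a2 and by Emp1 and Aqp8. The 10 goblet cell markers summed to 6954 and 11842 CPM in progenitor-like barcodes, against 40576 and 34758 CPM in deep crypt secretory-like, 173798 and 157209 CPM in goblet-like and 2140.5 and 1834 CPM in colonocyte-like barcodes, and secretory RNA in the progenitor-like sums was not removed. The 10 T cell markers summed to at most 129 CPM in any of these sums. The doublet score, the share of simulated pairs among 50 neighbours, had a median of 0.510 and 0.600 in the progenitor-like cluster and of 0.320 to 0.480 in the colonocyte-like clusters, and its part in the results was not tested beyond the removal of the highest-scoring 5% of barcodes.

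Members made up the largest share of UMIs in progenitor-like cells, an intermediate share in deep crypt secretory-like cells and the lowest in goblet-like and colonocyte-like cells, in the same order in both libraries. As a share of UMIs that were not mitochondrially encoded, members took 0.571% and 0.561% in the progenitor-like barcodes of replicates 1 and 2, 0.468% and 0.483% in deep crypt secretory-like, 0.294% and 0.299% in goblet-like and 0.289% and 0.296% in colonocyte-like barcodes. The 95% Wilson intervals, which cover counting error only, ran from 0.538% to 0.586% over the progenitor-like libraries and from 0.457% to 0.501% over the deep crypt secretory-like libraries, with no overlap. The intervals of goblet-like (0.285% to 0.315% over both libraries) and colonocyte-like cells (0.282% to 0.308%) overlapped, and these neighbours in the order did not differ beyond counting error. Within a library, the share in progenitor-like cells was 1.19 ± 0.043 (SD, n = 2 libraries) times that in deep crypt secretory-like cells, 1.91 ± 0.049 (SD, n = 2 libraries) times that in goblet-like cells and 1.94 ± 0.058 (SD, n = 2 libraries) times that in colonocyte-like cells. Against the mean of the secretory classes the ratio was 1.47 ± 0.047 (SD, n = 2 libraries). With 2 libraries no permutation test of these ratios can reach p = 0.05, and none is given. A few transcripts took much of the UMIs in some classes: Zg16, a goblet granule lectin, alone reached 910.3 and 1239 CPM in progenitor-like and 89027 and 80437 CPM in goblet-like barcodes. With the 10 most abundant genes left out of the denominator, an alternative chosen after seeing the data, the member share was 0.576% and 0.566% in progenitor-like, 0.484% and 0.496% in deep crypt secretory-like, 0.344% and 0.347% in goblet-like and 0.308% and 0.316% in colonocyte-like cells.

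**Figure D1:**
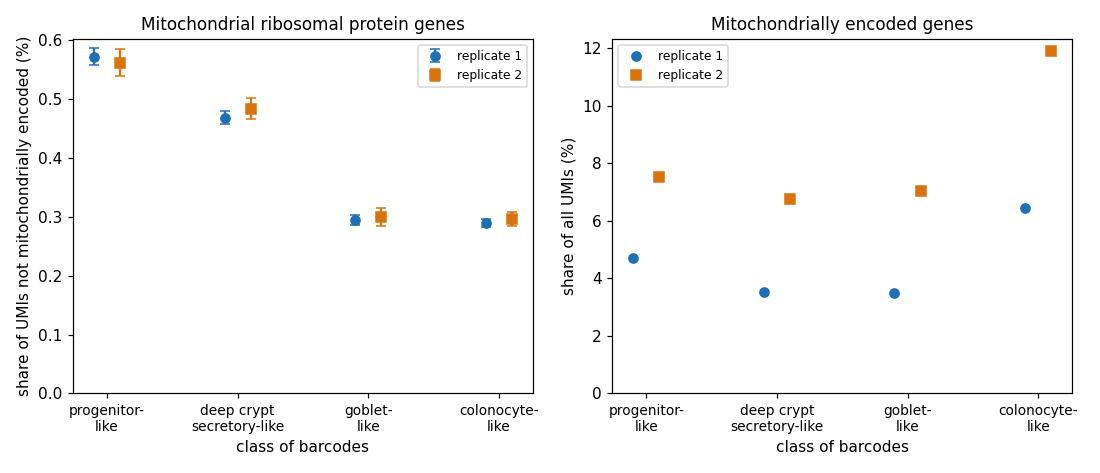
Left, UMIs of the 77 member genes as a percentage of UMIs that were not mitochondrially encoded, by cell class and library, with 95% Wilson intervals. Right, mitochondrially encoded UMIs as a percentage of all UMIs in the same barcodes. The member share is highest in progenitor-like cells in both libraries, whereas the mitochondrially encoded share is highest in colonocyte-like cells and higher in replicate 2 than in replicate 1 in every class.

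The difference between progenitor-like and colonocyte-like cells was also seen in single barcodes. Per 10000 UMIs that were not mitochondrially encoded, the median progenitor-like barcode held 57.6 member UMIs in replicate 1 (quartiles 48.1 and 63.7) and 53.5 in replicate 2 (quartiles 47.0 and 60.7). The median colonocyte-like barcode held 26.1 (quartiles 19.9 and 35.8) and 28.1 (quartiles 21.5 and 36.2). The lower quartile of progenitor-like barcodes thus lay above the upper quartile of colonocyte-like barcodes in each library.

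Classes were not uniform. The progenitor-like cluster was divided once more at resolution 0.8, as a description. Barcodes led by the stem cell genes Cdca7, Smoc2, Axin2 and Ascl2 (73 in replicate 1 and 15 in replicate 2) had a member share of 0.570% and 0.604%. Those led by Gsdmc4, Slc5a8 and Muc3 (38 and 7) had 0.604% and 0.614%, and those led by the secretory genes Reg4, Mptx1 and Spink4 (49 and 30) had 0.544% and 0.523%. The sums of these secretory-led barcodes, with Muc2 at 7224 and 8069 CPM, were above those of the deep crypt secretory-like and goblet-like classes in member share in each library. Among goblet-like barcodes, those led by Clca1 and Zg16 (186 and 52) had 0.221% and 0.248% and those led by Best2 and Scin (119 and 24) had 0.386% and 0.423%. The colonocyte-like clusters led by Fabp6 (233 and 69) and by Emp1 (167 and 47) had 0.292% and 0.299%, and 0.285% and 0.292%.

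Against the mean of the secretory classes, 19 of the 77 members rose and 0 fell in progenitor-like cells (edgeR quasi-likelihood test on the class sums with the library as a block, adjusted p under 0.05 over all 7769 genes tested). Over all genes tested 11.6% rose and 11.9% fell, and 24.7% of the members rose. At an unadjusted p under 0.05, 28 members were higher and 0 lower, and DESeq2 called 7 higher and 0 lower. The median log2 fold change was 0.42 over the members (range -0.45 to 1.45) and -0.03 over all genes tested. All 77 members passed the minimum of 20 UMIs over the sums. Within single libraries the log2 difference was positive for 65 members in replicate 1 and 59 in replicate 2.

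Mrpl4, a large-subunit protein with a bacterial counterpart, had the largest change, with 76.7 and 45.2 CPM in progenitor-like cells of replicates 1 and 2, against 31.5 and 17.9 CPM in deep crypt secretory-like and 18.2 and 7.36 CPM in goblet-like cells, a log2 fold change of 1.45 ± 0.27 (SE, adjusted p = 1.9e-06). Mrps22, a mitochondria-specific small-subunit protein, had 30.1 and 27.1 CPM in progenitor-like, 11.2 and 11.4 CPM in deep crypt secretory-like and 7.28 and 7.36 CPM in goblet-like cells, and its log2 fold change was 1.38 ± 0.38 (SE, adjusted p = 0.0022). For both genes, both progenitor-like libraries lay above all 4 secretory libraries. The goblet-like sum of replicate 2 held 543530 UMIs, so that 7.36 CPM there stands for only a few UMIs of each gene. Mrps30, which despite its symbol belongs to the large subunit, stood at 82.6 and 76.9 CPM in progenitor-like, 54.5 and 32.6 CPM in deep crypt secretory-like and 21.8 and 20.2 CPM in goblet-like cells, and Mrps26, of the small subunit, at 61.2 and 61.1 CPM in progenitor-like, 37.8 and 27.7 CPM in deep crypt secretory-like and 20.02 and 14.7 CPM in goblet-like cells. Their log2 fold changes were 1.07 ± 0.24 and 1.00 ± 0.27 (SE, adjusted p = 0.0001 and 0.0014). Mrps31 and Mrpl37, proteins of the small and the large subunit without a bacterial counterpart, changed by 0.97 ± 0.37 and 0.95 ± 0.24 (SE, adjusted p = 0.038 and 0.00079). The other 13 that rose had log2 fold changes from 0.52 (Mrps17) to 0.93 (Mrpl50).

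The count of risen members depended on the processing: it was 8 without the replicate block, 9 after all sums were thinned to the same depth and 38 with no doublets removed. Under these settings and by DESeq2 the share of all genes called was not computed. The count of risen members also depended on the scaling. With library totals alone in place of TMM factors the median gene moved from -0.03 to 0.26 on the log2 scale. Then 45 members rose against 20.3% of all genes, and 0 fell against 7.77%. In CPM, 33 of 77 members were higher in both progenitor-like libraries than in any of the 4 secretory libraries, as were 21.1% of all genes tested, and 0 were lower. The secretory classes differed in this. Against deep crypt secretory-like libraries alone 33 members were higher and 8 lower, and against goblet-like libraries alone 69 were higher and 0 lower. The share of all genes was not computed for the counts against a single secretory class or for the lower direction.

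**Figure D2:**
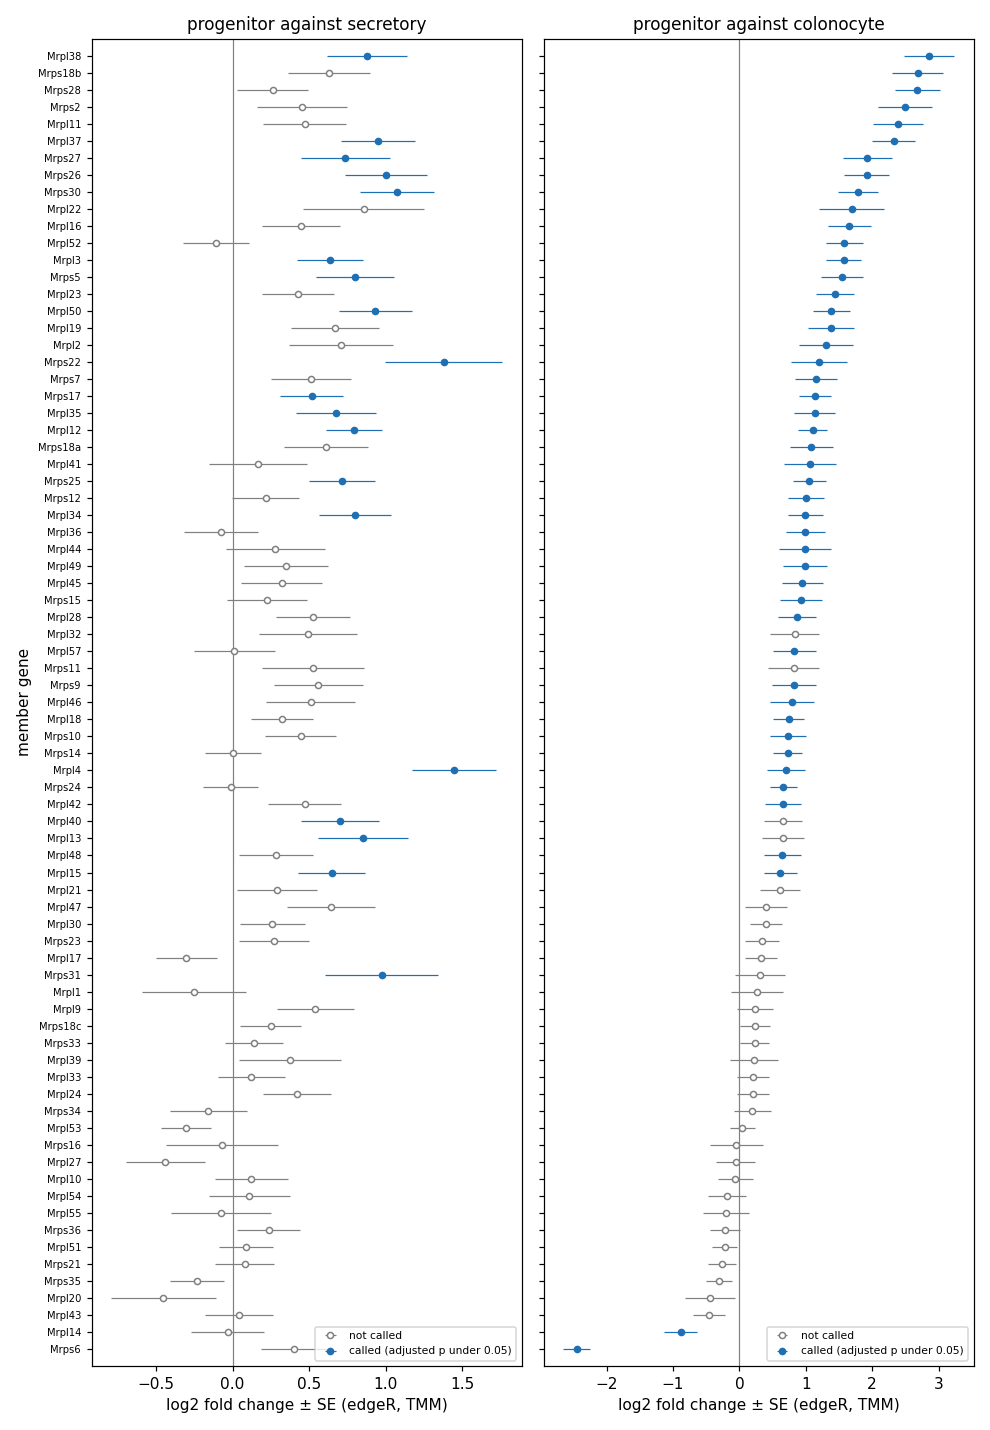
Log2 fold change (edgeR with TMM, bars ± SE) of each of the 77 members in progenitor-like against secretory cells (left) and against colonocyte-like cells (right), in the order of the right panel from highest to lowest. Filled points passed an adjusted p of 0.05: 19 rose on the left, and 45 rose and 2 fell on the right.

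Against colonocyte-like cells, 45 of the 77 members rose and 2, Mrps6 and Mrpl14, fell in progenitor-like cells. Of all genes tested 20.4% rose and 20.6% fell, and 58.4% of the members rose. The median log2 fold change of the members was 0.79 (range -2.45 to 2.86), and that of all genes tested was -0.02. The log2 difference was positive for 63 members within replicate 1 and for 66 within replicate 2. This comparison shares its progenitor-like libraries with that against secretory cells, so the 2 are not independent.

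Mrpl38, of the large subunit, had 61.2 and 63.3 CPM in progenitor-like cells, against 5.57 and 5.65 CPM in colonocyte-like cells, and its log2 fold change was 2.86 ± 0.37 (SE, adjusted p = 2.6e-13). Mrps18b, of the small subunit, had 58.3 and 47.5 CPM in progenitor-like and 5.57 and 5.65 CPM in colonocyte-like cells, with a log2 fold change of 2.69 ± 0.39 (SE, adjusted p = 3.1e-11). Mrps28, also of the small subunit, had 75.8 and 67.8 CPM in progenitor-like and 8.56 and 5.65 CPM in colonocyte-like cells, a difference of 2.68 ± 0.34 (SE, adjusted p = 4.0e-14). These genes were near the bottom of the range in both colonocyte-like libraries, where each was represented by 5 to 20 UMIs. Mrps2, a small-subunit protein shared with bacteria, stood at 53.4 and 27.1 CPM in progenitor-like and 5.99 and 3.39 CPM in colonocyte-like cells. Mrpl11, whose bacterial counterpart lies where translation factors bind, stood at 52.5 and 47.5 CPM in progenitor-like and 6.85 and 5.65 CPM in colonocyte-like cells, and Mrpl37 at 82.6 and 63.3 CPM in progenitor-like and 9.42 and 11.3 CPM in colonocyte-like cells. The log2 fold changes of Mrps2, Mrpl11 and Mrpl37 were 2.49 ± 0.41, 2.39 ± 0.38 and 2.32 ± 0.32 (SE, adjusted p = 1.0e-08, 3.0e-09 and 3.9e-12). In all 6 genes the libraries of the classes did not overlap. Mrps2 and Mrpl11 were likewise near the bottom of the range in colonocyte-like cells, with only a few UMIs in replicate 2. The other 39 that rose ranged from 0.62 (Mrpl15) to 1.93 (Mrps27).

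DESeq2 called 26 members higher and 2 lower, and thinned sums gave 29 higher. With library totals alone the median gene moved from -0.02 to 0.54, and 62 members rose and 1 fell, against 34.3% and 12.8% of all genes. In CPM, 69 of 77 members were higher in both progenitor-like libraries than in either colonocyte-like library, as were 47.7% of all genes tested, and 1 was lower in both. The share of all genes that were lower in both was not computed.

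Mrps6, the small-subunit counterpart of bacterial S6, changed in the opposite direction to the members that rose. It had 87.4 and 61.1 CPM in progenitor-like, 64.3 and 57.0 CPM in deep crypt secretory-like, 37.0 and 38.6 CPM in goblet-like and 302 and 261 CPM in colonocyte-like cells. Colonocyte-like cells were thus highest in both libraries, and the libraries of no other of these classes came near them. Mrps6 fell by 2.45 on the log2 scale in progenitor-like against colonocyte-like cells (SE 0.20, adjusted p = 3.0e-32) and by 2.85 in secretory against colonocyte-like cells (SE 0.16, adjusted p = 4.3e-65), and the first change was -1.88 with library totals alone. In the human annotation (RefSeq, GRCh38.p14) MRPS6 starts at the same position as SLC5A3, the myo-inositol transporter gene, and the 2 genes overlap. No mouse annotation was used here, and reads of the mouse pair may not have been told apart. Slc5a3, chosen after its values were seen, had 26.2 and 15.8 CPM in progenitor-like, 18.9 and 13.04 CPM in deep crypt secretory-like, 9.71 and 7.36 CPM in goblet-like and 67.2 and 61.1 CPM in colonocyte-like cells, an order like that of Mrps6 at lower levels. Mrpl14, a large-subunit protein near the subunit interface, had 65.1 and 45.2 CPM in progenitor-like and 77.5 and 61.1 CPM in colonocyte-like cells, groups that overlapped. It fell by 0.88 (SE 0.25, adjusted p = 0.0015) with TMM, and its difference was -0.31 (adjusted p = 0.3) with library totals alone.

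**Figure D3:**
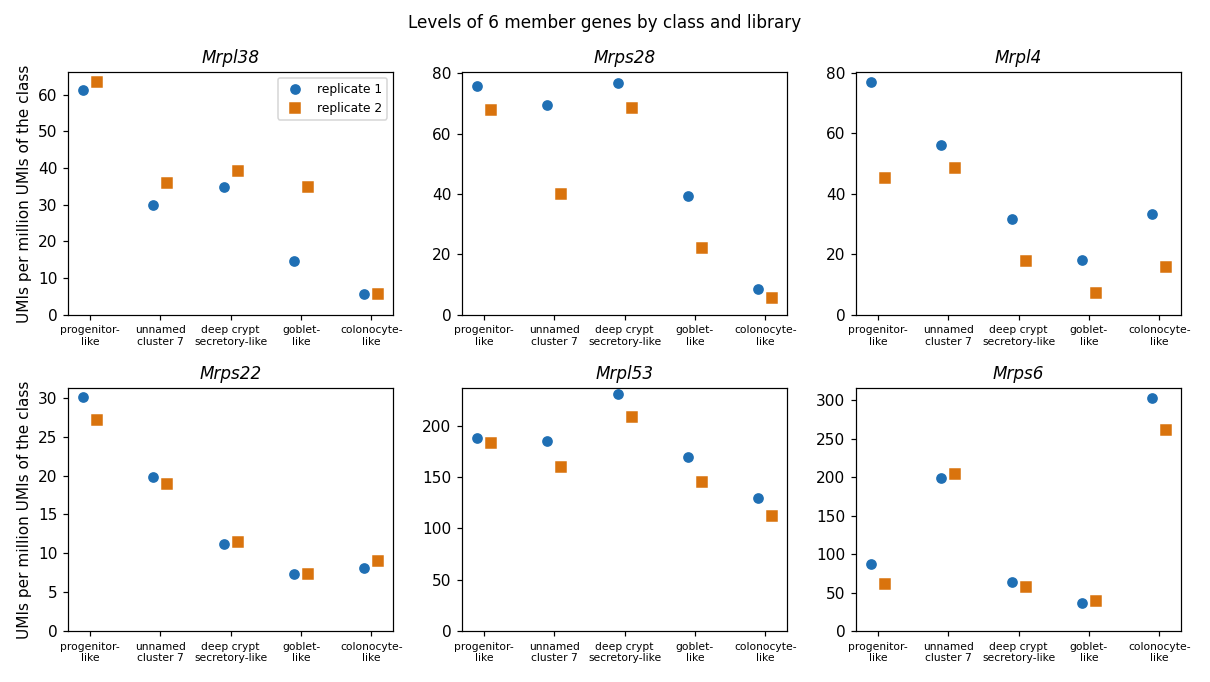
CPM for 6 members in each class and library (circles, replicate 1, squares, replicate 2, linear axes from 0). Mrpl38 and Mrps28 are lowest in colonocyte-like cells, Mrpl4 and Mrps22 are higher in progenitor-like than in any other named class, Mrpl53 lies between 112 and 231 CPM in the named classes and Mrps6 is highest in colonocyte-like cells.

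The 6 members with most UMIs overall were Mrpl53, Mrpl51, Mrps6, Mrps35, Mrps24 and Mrps14. Of these, Mrps24 and Mrps14, small-subunit proteins with bacterial counterparts, rose in progenitor-like against colonocyte-like cells, by 0.66 ± 0.21 and 0.73 ± 0.21 (SE, adjusted p = 0.0049 and 0.0025). Mrpl53 and Mrpl51, of the large subunit, and Mrps35, of the small subunit, passed the test in neither progenitor comparison with TMM. Mrpl53 had 188 and 183 CPM in progenitor-like, 231 and 209 CPM in deep crypt secretory-like, 169.9 and 145 CPM in goblet-like and 129.7 and 112 CPM in colonocyte-like cells, and its log2 difference was -0.30 ± 0.16 against secretory and 0.05 ± 0.19 against colonocyte-like cells (SE, adjusted p = 0.18 and 0.88). With library totals alone its difference against colonocyte-like cells was 0.60 (adjusted p = 0.00098) and passed the test, and the CPM of both progenitor-like libraries were above those of both colonocyte-like libraries. Mrps36, which is named for the small subunit but is now known as a part of the 2-oxoglutarate dehydrogenase complex, passed in neither with TMM (0.23 ± 0.21 and -0.21 ± 0.23, adjusted p = 0.48 and 0.5).

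In secretory against colonocyte-like cells, 23 members rose and 4 fell, against 18.3% and 19.6% of all genes tested, and the median log2 fold change was 0.35, against 0.02 over all genes. The largest rises were in Mrps28 (2.42 ± 0.31), Mrps18b (2.06 ± 0.37), Mrps2 (2.04 ± 0.38), Mrpl38 (1.98 ± 0.36), Mrpl11 (1.92 ± 0.35) and the large-subunit gene Mrpl52 (1.69 ± 0.24). Mrpl52 had 90.2 and 101 CPM in deep crypt secretory-like and 46.7 and 75.4 CPM in goblet-like cells, against 17.6 and 20.4 CPM in colonocyte-like cells. The members that fell were Mrps6, Mrpl14 (-0.85 ± 0.20), Mrpl4 (-0.75 ± 0.28) and Mrpl43 (-0.50 ± 0.20), and with library totals alone Mrps6 and Mrpl14 still passed whereas the differences of Mrpl4 and Mrpl43 were -0.46 and -0.22 (adjusted p = 0.18 and 0.37). With library totals alone 44 members rose, against 26.7% of all genes, with a shift of the median gene to 0.29. DESeq2 called 13 higher and 2 lower. Without the replicate block 13 rose and 2 fell.

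Between the secretory classes, 8 members rose and 0 fell in deep crypt secretory-like against goblet-like cells, against 6.59% and 7.79% of all genes tested. At an unadjusted p under 0.05, 20 were higher and 0 lower. The median log2 fold change was 0.38 over the members, 72 of which were positive, and 0.05 over all genes. Mrps9 (32.9 and 50.5 CPM in deep crypt secretory-like, 14.0 and 14.7 CPM in goblet-like cells), Mrpl19 (37.1 and 40.7 CPM in deep crypt secretory-like, 13.3 and 16.6 CPM in goblet-like cells), Mrps2, Mrpl37, Mrpl21 and Mrps28 had the largest changes, from 0.79 to 1.11. No member passed by DESeq2, without the replicate block or in thinned sums, and 28 rose with no doublets removed. With library totals alone 40 members rose, against 17.1% of all genes, and the median gene stood at 0.40. The summed member share in deep crypt secretory-like cells was 1.60 ± 0.017 (SD, n = 2 libraries) times that in goblet-like cells.

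Members of both subunits rose, and so did members with and without a bacterial counterpart. By their place in the ribosome, which differs from the symbol for Mrps30 and Mrps18a of the large subunit, 7 of 26 (26.9%) small-subunit genes and 12 of 50 (24%) large-subunit genes rose in progenitor-like against secretory cells, and 16 of 26 (61.5%) and 29 of 50 (58.0%) rose against colonocyte-like cells. The median log2 fold change against colonocyte-like cells was 0.82 for the small and 0.77 for the large subunit. Of the genes without a bacterial counterpart 10 of 30 (33.3%) rose against secretory and 19 of 30 (63.3%) against colonocyte-like cells. Of those with a bacterial counterpart 9 of 46 (19.6%) rose against secretory and 26 of 46 (56.5%) against colonocyte-like cells. The differences between these groups of genes were not tested.

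**Figure D4:**
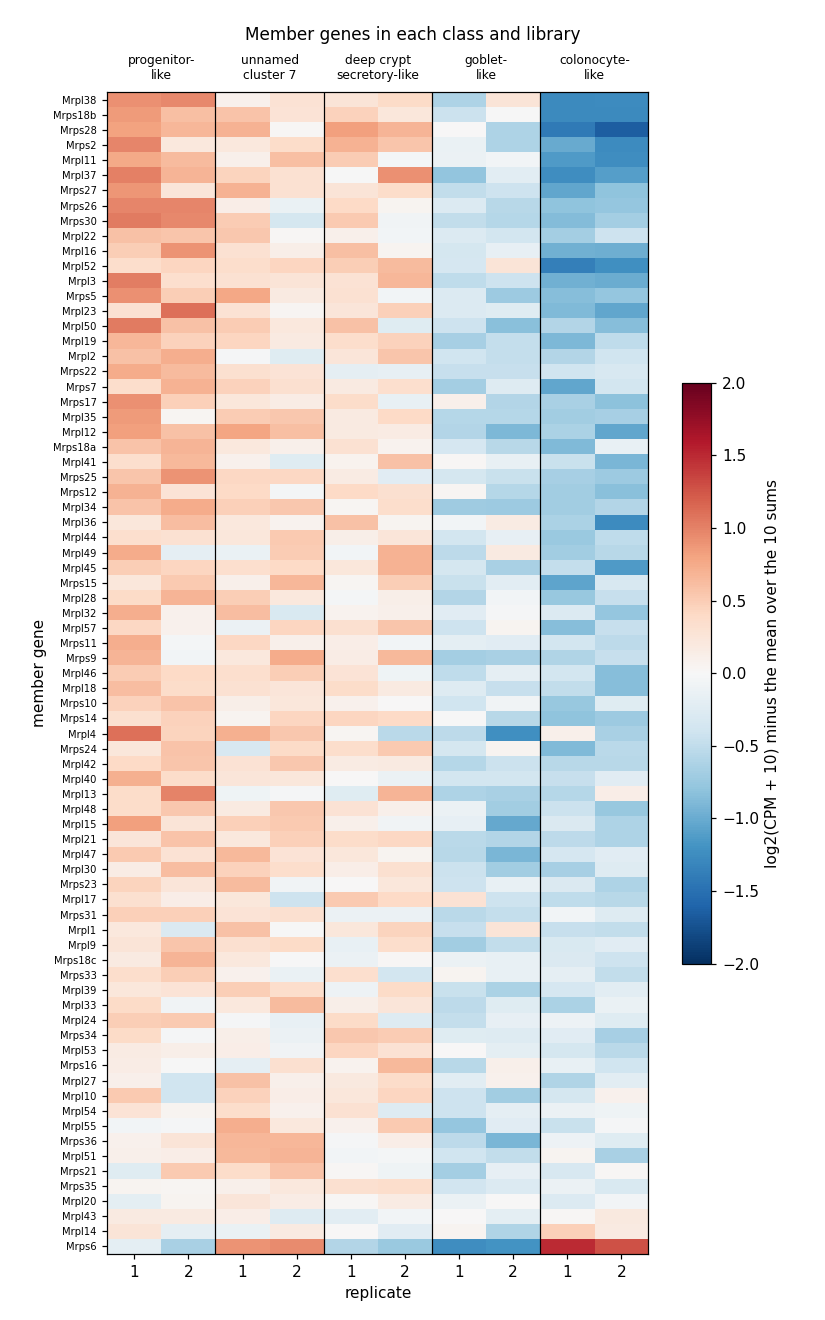
Levels of the 77 members (rows, from the highest to the lowest log2 fold change in progenitor-like against colonocyte-like cells) in each class and library (columns), as log2(CPM + 10) minus the row mean, so that colours compare classes within a gene and not genes with each other. Progenitor-like cells are red for most members and colonocyte-like cells blue, with Mrps6 in the last row reversed.

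The mitochondrially encoded share did not follow the member share across classes. The 13 mitochondrially encoded protein genes made up 4.70% and 7.55% of all UMIs in the progenitor-like barcodes of replicates 1 and 2, 3.52% and 6.76% in deep crypt secretory-like, 3.51% and 7.04% in goblet-like and 6.46% and 11.9% in colonocyte-like barcodes. Colonocyte-like cells had the highest mitochondrially encoded share in each library, and replicate 2 was above replicate 1 in every class. Goblet-like cells, whose member share did not differ from that of colonocyte-like cells beyond counting error, had a lower mitochondrially encoded share than these in each library. Per 1000 mitochondrially encoded UMIs there were 116 and 68.7 member UMIs in progenitor-like, 128 and 66.6 in deep crypt secretory-like, 81.0 and 39.5 in goblet-like and 41.8 and 21.9 in colonocyte-like barcodes. Within a library this ratio was 2.96 ± 0.26 (SD, n = 2 libraries) times higher in progenitor-like than in colonocyte-like cells. Against deep crypt secretory-like cells it was 0.904 times in replicate 1 and 1.03 times in replicate 2, without a common direction.

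Gene by gene, 12 of the 13 fell and 0 rose in progenitor-like against colonocyte-like cells (edgeR; 0 higher at an unadjusted p under 0.05 and 0 by DESeq2). The median log2 fold change was -0.98, against 0.79 for the members in the same fit. The largest falls were in the cytochrome oxidase subunits mt-Co3 (-1.44 ± 0.13), mt-Co1 (-1.39 ± 0.12) and mt-Co2 (-1.26 ± 0.12) and the complex I subunit mt-Nd3 (-1.34 ± 0.13). mt-Co3 had 2966 and 6179 CPM in progenitor-like cells, against 5158 and 12306 CPM in colonocyte-like cells of replicates 1 and 2. The gap between replicates was wider than that between classes, and progenitor-like cells were lower within each library. With library totals alone 9 of the 13 fell. Against secretory cells 1 rose, mt-Nd2 (0.41 ± 0.11), and 1 fell, mt-Co1 (-0.30 ± 0.11), whereas with library totals alone 8 rose and 0 fell, so that the direction of this list depended on the scaling. In secretory against colonocyte-like cells 12 of 13 fell, with a median of -1.09, and in deep crypt secretory-like against goblet-like cells 3 fell (mt-Co1, mt-Co2 and mt-Co3, by 0.48 to 0.67). That last count also depended on the processing, since DESeq2 called 7 lower, and with library totals alone 3 rose and 2 fell.

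Within a class, barcodes with the highest and the lowest mitochondrially encoded share differed most in member share in goblet-like cells, in each library. Barcodes of each class and library were divided into 3 equal bands by their mitochondrially encoded share. In progenitor-like cells, the member share was 0.583%, 0.599% and 0.530% in the lowest, middle and highest band of replicate 1 and 0.567%, 0.540% and 0.577% in those of replicate 2, while the mitochondrially encoded share ran over 2.87%, 4.25% and 7.13% and 4.85%, 7.0% and 10.9%. In colonocyte-like cells, the member share was 0.289%, 0.304% and 0.262% in the lowest, middle and highest band of replicate 1 and 0.304%, 0.284% and 0.296% in those of replicate 2, with mitochondrially encoded shares of 3.65%, 5.87% and 12.2% and 7.52%, 11.3% and 19.8%. No band of colonocyte-like cells reached any band of progenitor-like cells. In deep crypt secretory-like cells, the member share was 0.462%, 0.467% and 0.476% in the lowest, middle and highest band of replicate 1 and 0.509%, 0.445% and 0.492% in those of replicate 2. In goblet-like cells, the member share was 0.253%, 0.322% and 0.313% in the lowest, middle and highest band of replicate 1 and 0.270%, 0.334% and 0.299% in those of replicate 2, with the lowest band below the others in both libraries. The goblet-like cluster led by Clca1 and Zg16 had a member share of 0.221% and 0.248% and a mitochondrially encoded share of 3.33% and 6.57%. The cluster led by Best2 and Scin had 0.386% and 0.423%, and 3.72% and 8.16%. The part of these clusters in the goblet-like bands was not tested. The highest over the lowest band was 0.909 and 1.02 in progenitor-like, 1.03 and 0.968 in deep crypt secretory-like, 1.23 and 1.11 in goblet-like and 0.906 and 0.975 in colonocyte-like cells. Depth moved with the bands, since the median barcode of colonocyte-like cells held 6560.5 UMIs in the lowest and 3667 UMIs in the highest band of replicate 1, and its part was not tested. Over barcodes, the rank correlation of the 2 shares, a description without a test in sparse counts of a shared library, was -0.21 in replicate 1 (160 barcodes) and -0.08 in replicate 2 (52 barcodes) in progenitor-like, -0.04 in replicate 1 (272 barcodes) and -0.04 in replicate 2 (82 barcodes) in deep crypt secretory-like, 0.18 in replicate 1 (305 barcodes) and 0.15 in replicate 2 (76 barcodes) in goblet-like and -0.11 in replicate 1 (400 barcodes) and -0.01 in replicate 2 (116 barcodes) in colonocyte-like cells.

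**Figure D5:**
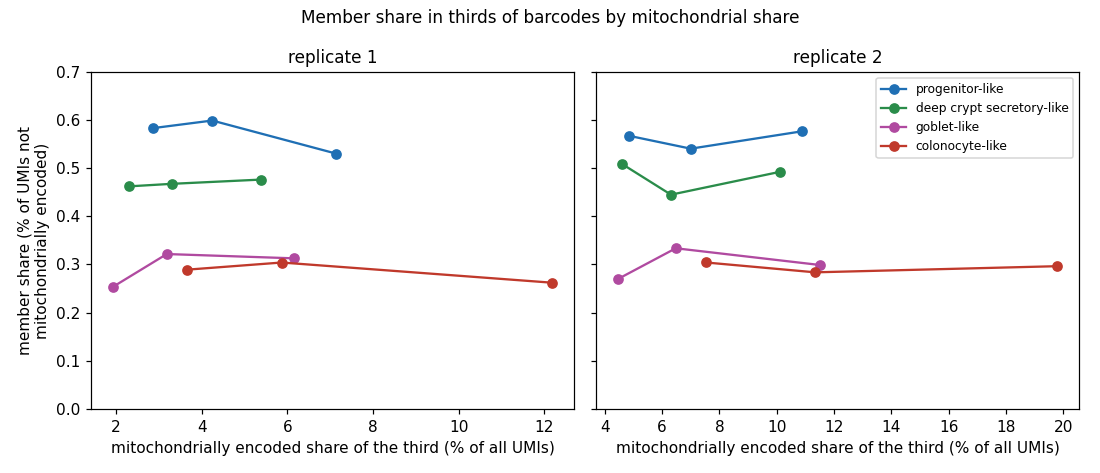
Member share (percentage of UMIs that were not mitochondrially encoded) against the mitochondrially encoded share (percentage of all UMIs) for the 3 equal bands of barcodes of each class, with 1 panel per library and lines joining the bands of a class. Goblet-like cells have their lowest member share in the lowest band of both libraries, and goblet-like and colonocyte-like cells stay below progenitor-like and deep crypt secretory-like cells throughout.

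The other genes of mitochondrial gene expression were taken from lists that were, like the members, chosen with earlier results of these data known. Of the mitochondrial ribosomal proteins that carry other symbols, 3 of 7 rose in progenitor-like against secretory cells (with TMM Chchd1, 0.76 ± 0.23, Ptcd3, 0.74 ± 0.28, and the GTP-binding small-subunit protein Dap3, 0.65 ± 0.21) and 0 fell (0 lower at an unadjusted p under 0.05 and 0 by DESeq2, which called 0 higher, whereas 6 rose with library totals alone). Against colonocyte-like cells 5 of 7 rose, with the largest change in Gadd45gip1 (2.61 ± 0.50). Of all genes tested 11.6% rose against secretory cells (20.3% with library totals alone) and 20.4% rose against colonocyte-like cells. Dap3 had 98.1 and 118 CPM in progenitor-like, 74.1 and 61.9 CPM in deep crypt secretory-like, 49.1 and 35.0 CPM in goblet-like and 41.5 and 29.4 CPM in colonocyte-like cells.

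Many import and folding factors rose. Of this list, 11 of 19 rose against secretory and 16 of 19 against colonocyte-like cells, beside 11.6% and 20.4% of all genes tested, with median log2 fold changes of 0.80 and 1.70, and 0 fell in either (0 lower at an unadjusted p under 0.05 and 0 by DESeq2 in each). Hspd1, the matrix chaperonin, had 271 and 321 CPM in progenitor-like, 109.8 and 137 CPM in deep crypt secretory-like, 30.3 and 42.3 CPM in goblet-like and 15.8 and 12.4 CPM in colonocyte-like cells, and changed by 1.88 ± 0.18 against secretory and 3.70 ± 0.24 against colonocyte-like cells. Its co-chaperonin Hspe1 changed by 1.64 ± 0.15 and 3.84 ± 0.21, the intermembrane space chaperone Timm9 by 1.5 ± 0.34 and 3.90 ± 0.52, and the outer membrane channel Tomm40 by 1.35 ± 0.23 against secretory cells. All libraries of progenitor-like cells were above those of the named classes in Hspd1. Translation factors rose in 4 of 16 cases (25%) against secretory and 6 of 16 (37.5%) against colonocyte-like cells, beside the same 11.6% and 20.4% of all genes. With library totals alone 6 and 10 of them rose, beside 20.3% and 34.3% of all genes. C1qbp, a matrix protein that binds mitochondrial RNA and ribosomes, changed by 1.85 ± 0.17 and 4.05 ± 0.24 and the elongation factor Tsfm by 1.10 ± 0.26 and 2.46 ± 0.34.

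Genes of mitochondrial DNA maintenance and transcription rose in 5 of 14 cases (35.7%) against secretory and 11 of 14 (78.6%) against colonocyte-like cells, beside 11.6% and 20.4% of all genes tested. DESeq2 called 3 and 5 higher, and with library totals alone 9 and 12 rose, beside 20.3% and 34.3% of all genes. Among those that rose with TMM were the nuclease Mgme1 (1.42 ± 0.37 against secretory), the helicase Peo1 (1.12 ± 0.39 against secretory and 1.88 ± 0.48 against colonocyte-like cells) and Tfam, which packages mitochondrial DNA (0.91 ± 0.27 and 0.99 ± 0.30). Assembly factors of the mitochondrial ribosome gave these counts: 2 of 23 rose (Fastkd2, 1.30 ± 0.36, and Rpusd4, 0.88 ± 0.34) and 1 fell (Mterf3, -1.11 ± 0.39) against secretory cells, and 6 of 23 rose against colonocyte-like cells, led by Wbscr16 (3.59 ± 0.56) and Fastkd2 (2.13 ± 0.44). The assembly factors that rose were 8.70% of the list against secretory cells and 26.1% against colonocyte-like cells, beside 11.6% and 20.4% of all genes tested. DESeq2 called 0 and 3 of them higher, and with library totals alone 6 and 18 rose, beside 20.3% and 34.3% of all genes. The list of mitochondrial tRNA synthetases included Kars and Gars, which also make the cytosolic enzymes. Of its 19 genes 3 rose, Kars among them, and 1 fell against secretory cells, and 6 rose and 1 fell against colonocyte-like cells. Those that rose were 15.8% and 31.6% of the list, beside 11.6% and 20.4% of all genes tested, of which 11.9% and 20.6% fell. DESeq2 called 1 higher in each comparison. With library totals alone 5 and 16 rose, beside 20.3% and 34.3% of all genes. The synthetase that fell was Ears2 against secretory cells (-1.55 ± 0.26, with 22.3 and 45.2 CPM in progenitor-like, 58.0 and 73.3 CPM in deep crypt secretory-like and 65.5 and 114 CPM in goblet-like cells) and Lars2 against colonocyte-like cells (-1.10 ± 0.16).

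Among 10 listed regulators of genes for mitochondria, 4 (40%) rose against secretory cells, beside 11.6% of all genes tested, and DESeq2 called 1 higher. The 4 were Myc (1.40 ± 0.23), a growth-promoting transcription factor, the coactivators Pprc1 (1.08 ± 0.39) and Ppargc1b (0.69 ± 0.27), and Tfam. Tfam acts on mitochondrial DNA and was also counted with the maintenance genes above. Against colonocyte-like cells Myc (4.57 ± 0.38), Pprc1 (2.19 ± 0.50), Nrf1 (1.22 ± 0.30) and Tfam rose, and Esrra (-1.61 ± 0.27), Gabpb1 (-0.71 ± 0.21) and Ppargc1b (-0.69 ± 0.26) fell. These were 4 higher and 3 lower, beside 20.4% and 20.6% of all genes tested, and the median over the list was 0.07. DESeq2 called 2 higher and 2 lower. With library totals alone only Esrra of the 3 that fell passed (-1.04 ± 0.27), and Gabpb1 and Ppargc1b differed by -0.15 ± 0.20 and -0.12 ± 0.26. Myc had 133 and 74.6 CPM in progenitor-like, 67.8 and 53.8 CPM in deep crypt secretory-like, 20.6 and 14.7 CPM in goblet-like and 3.42 and 2.26 CPM in colonocyte-like cells. Myc was also among the stem cell markers used to name clusters, although not to form them, so its rise is not independent of the class name. Esrra, a receptor that acts with the coactivators on respiratory genes, had 38.9 and 27.1 CPM in progenitor-like and 77.1 and 63.3 CPM in colonocyte-like cells.

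An unnamed cluster of ordinary depth, cluster 7 (140 barcodes in replicate 1 and 58 in replicate 2, led by Reg3b, Gsdmc, Csrp2, Gsdmc4, Tfrc and Slc5a8), had a member share near that of progenitor-like cells and a lower cycling score than these. Its share was 0.539% and 0.547% in replicates 1 and 2, and its mitochondrially encoded share 7.45% and 12.3%. The cycling score, the mean log2 level of the markers relative to the mean over clusters, was 2.90 in the progenitor-like cluster, against 0.21 in cluster 7, and the stem score was 1.61 in the progenitor-like cluster, against 0.13 in cluster 7. The cycling score was also 0.21 in the deep crypt secretory-like cluster, and it was -1.19 and -0.62 in the goblet-like and -1.31 and -1.28 in the colonocyte-like clusters. In a fit with this cluster as a class of its own, added after seeing the data, 2 members rose (Mrps26, 1.03 ± 0.34, and Mrps30, 0.81 ± 0.29) and 3 fell (Mrps6, -1.52 ± 0.20, Mrpl51, -0.72 ± 0.18, and Mrps36, -0.69 ± 0.22) in progenitor-like cells against cluster 7, where 9.08% of all genes rose and 8.54% fell. The median log2 fold change of the members was 0.10. A member that did not pass is not shown to be equal in the 2 classes.

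In cluster 7 against colonocyte-like cells 36 members rose and 2 fell, Mrps6 and Mrpl14, against 9.25% and 11.5% of all genes, with a median of 0.73. The largest rises were in Mrps28 (2.52 ± 0.35) and Mrps18b (2.49 ± 0.41). Against secretory cells 10 members rose and 0 fell (1 lower at an unadjusted p under 0.05; DESeq2 was not run on this fit), against 8.2% and 9.25% of all genes. Mrps6 led these (1.92 ± 0.17), with 199 and 205 CPM in cluster 7, between its levels in progenitor-like and colonocyte-like cells, and Mrpl4 followed (1.30 ± 0.29). Of the mitochondrially encoded genes 12 of 13 rose in cluster 7 against secretory cells, and 12 of 13 fell in progenitor-like cells against cluster 7, with a median of -0.82. The mitochondrially encoded share of progenitor-like cells was thus below that of cluster 7 and colonocyte-like cells and above that of the secretory classes in each library.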

How the data were processed

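The authors deposited counts of unique molecular identifiers per gene and barcode, without normalization, as a table for each of 2 libraries prepared from different cells of 1 mouse. The submitters' processing notes name the builds GRCh38 and GRCm38. Which aligner, annotation, strand setting and barcode filter were used is not given in the sources used here. Tables held 1738 and 664 barcodes, with 4616 and 4756 UMIs per barcode in the median and a minimum of 1001. The 5% of barcodes in each library with the highest doublet score were left out (87 and 33). Genes were divided by a fixed hash of their symbols: one part formed the clusters, and the other, with the members, the lists and the mitochondrially encoded genes, was only read out. Clusters (Leiden algorithm, resolution 1, 15 neighbours, 30 components of 1500 variable genes) were named from marker lists; the combined stem and cycling name and the deep crypt secretory name of a Reg4-led cluster follow rules set after the clusters were seen. Names rebuilt in this way may differ from those of the study.

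UMIs were summed per library and class and tested with edgeR's quasi-likelihood test (TMM factors, at least 20 UMIs over the sums, library as a block, Benjamini-Hochberg adjustment over the 7769 genes tested, 8 sums and 3 residual degrees of freedom). Sums held 442160 to 2335945 UMIs. The block pairs classes by construction, since their barcodes come from the same library. The fit was run on simulated counts with known changes added to the progenitor-like sums. All simulated classes shared a common mean profile without a library effect. That run therefore did not test the filters, the clustering or the scaling between unlike classes. The text names, per comparison, up to 6 called members with the largest change in each direction, the 6 members with most UMIs, up to 4 called genes per list and direction, and any gene said to be chosen later. Members and lists were chosen with earlier results of these data known. Alternatives were DESeq2, no block, no low-count filter, thinned sums, other doublet, resolution, denominator and gene-division settings, leaving out a library and, added later, totals without scaling factors, the 10 most abundant genes left out and cluster 7 as a class. CPM values are scaled to the UMIs of the class sum and compare classes, not genes. Software was Python 3.11.15, numpy 2.4.6, scipy 1.17.1, pandas 2.3.3, scikit-learn 1.9.0, igraph 0.11.9, leidenalg 0.10.2, R 4.3.3, edgeR 4.0.16 and DESeq2 1.42.0.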

Additional observations from a re-analysis of the deposited data

Results flagged for a closer look

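The member share was measured as well in the clusters that entered no comparison of the named classes. Cluster 1 (unnamed, with a median of 1564 UMIs per barcode) had a member share of 0.45% over both libraries, and cluster 4 (unnamed, median 1680 UMIs) had 0.346%. The libraries gave 0.470% and 0.438% for cluster 1 and 0.341% and 0.355% for cluster 4 in replicates 1 and 2. Both clusters were shallow, with 7.45% and 10.2% and 22.1% and 36.8% of their UMIs mitochondrially encoded, and they were given no cell type. The leading genes of cluster 1 included C11orf31 and C11orf58, whose symbols are of the human form, and its score for the red cell markers was 4.93 over both libraries. That score rests on replicate 1, since the markers summed to 2556 CPM in replicate 1 and 8.39 CPM in replicate 2 over all unnamed barcodes (clusters 1, 4 and 7). Cluster 7 (unnamed, of ordinary depth) had 0.542%, cluster 9 (T cell-like, 57 barcodes in replicate 1 and 9 in replicate 2) 0.375% and cluster 10 (tuft-like, 9 and 2 barcodes) 0.429%. These values were picked out because they lie in barcodes outside the comparisons and are above the limit that a count of 3 UMIs allows, as any expressed gene group would be. Differences between them and the named classes were not tested, apart from cluster 7.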

How the results depend on the processing

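The member-share ratios between classes listed in the next paragraph stayed above 1 under every alternative run for them. Goblet-like over colonocyte-like cells was not among them, and this order was not stable. Goblet-like cells were above in the main setting but below with no doublets removed (0.244% and 0.258%, against 0.306% and 0.310% in colonocyte-like cells). They were also below at resolution 0.5 and with another division of the genes. The counts of called members varied widely, and the band ratios of progenitor-like, deep crypt secretory-like and colonocyte-like cells fell on both sides of 1. Single genes were followed only for members picked by the naming rule, those with the largest changes or most UMIs, and not for all called members. Of their 34 called results, 16 lost the call under at least 1 alternative, in 56 of 442 refits, and 0 reversed. The numbers of members called under each alternative follow for progenitor-like against secretory cells (19 higher), progenitor-like against colonocyte-like cells (45 higher, 2 lower), secretory against colonocyte-like cells (23 higher, 4 lower) and deep crypt secretory-like against goblet-like cells (8 higher). DESeq2 gave 7, 26, 13 and 0 higher, and 2 lower in secretory against colonocyte-like cells. Without the replicate block, which pairs class sums of the same library, the counts were 8 higher against secretory cells, 13 higher and 2 lower in secretory against colonocyte-like cells and 0 between the secretory classes. Thinned sums gave 9, 29 and 0 higher in the progenitor comparisons and between the secretory classes, by construction on fewer UMIs. With no doublets removed the counts were 38 against secretory cells, 13 in secretory against colonocyte-like cells and 28 between the secretory classes. Another division of the genes for clustering gave 30 higher against secretory cells, 4 lower against colonocyte-like cells and 7 lower in secretory against colonocyte-like cells. Without the filter on low counts 2 were lower in secretory against colonocyte-like cells and 2 higher between the secretory classes. Library totals without scaling factors, chosen after seeing the data, gave 45 and 44 higher against secretory cells and in secretory against colonocyte-like cells, 40 between the secretory classes, and 1 and 2 lower against colonocyte-like cells in the progenitor and secretory comparisons. Apart from the scaling, the filters, the thinned depth and the fits as named, the cause of these shifts was not tested. The share of all genes called was computed only in the main fit, with library totals alone and in the fit with cluster 7. Member counts under the other settings therefore have no such share beside them.

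The ratio of member shares moved by more than the spread between libraries under several settings. With no doublets removed it was 1.61 for progenitor-like over secretory, 1.84 for progenitor-like over colonocyte-like, 1.15 for secretory over colonocyte-like and 1.81 for deep crypt secretory-like over goblet-like cells. With the 10 most abundant genes left out, these were 1.37, 1.83, 1.34 and 1.42. Clustering at resolution 0.5 gave 1.86 for progenitor-like over colonocyte-like, 1.25 for secretory over colonocyte-like and 1.65 for the secretory classes, and resolution 1.5 gave 1.33 for secretory over colonocyte-like cells. Over all UMIs, progenitor-like over colonocyte-like was 2.00 and secretory over colonocyte-like 1.38. As means over barcodes, secretory over colonocyte-like was 1.36 and the secretory classes 1.56, and without barcodes over 20% mitochondrially encoded the first was 1.31. For colonocyte-like cells the highest over the lowest band by mitochondrially encoded share was 1.00 with 2 bands and 0.836 over all UMIs. Leaving out either library gave 1.43 to 1.5 for progenitor-like over secretory, 1.90 to 1.98 for progenitor-like over colonocyte-like, 1.32 to 1.32 for secretory over colonocyte-like and 1.59 to 1.61 for deep crypt secretory-like over goblet-like cells, and for the bands 0.909 to 1.02, 0.968 to 1.03, 1.11 to 1.23 and 0.906 to 0.975 in progenitor-like, deep crypt secretory-like, goblet-like and colonocyte-like cells. A single library leaves no residual degrees of freedom, so called counts could not be had without either. Members with few UMIs set the limit of depth: the lowest class sum held 3 UMIs of a member.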
